A study of Homo sapiens with 40 samples.

Results

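Of 51457 CTCF peaks measured in EndoC-βH3 cells, 3610 (7.02%) lay in distal chromatin that carried H3K27ac but was on neither of the deposited enhancer lists. A peak was included if it was more than 2 kb from every start site of a protein-coding transcript in GENCODE 44, outside the enhancers listed for non-senescent and for senescent cells, and overlapped an H3K27ac peak by at least 1 bp. The CTCF peak itself was thus neither in a listed enhancer nor within 2 kb of a coding start, whereas its H3K27ac peak could reach either. The other CTCF peaks fell into 5 classes. These were 7680 peaks at promoters with H3K27ac, 3381 at promoters without it, 3118 in enhancers listed in both states, 1239 in enhancers listed in 1 state alone, and 32429 away from promoters, listed enhancers and H3K27ac peaks, termed outside active chromatin.

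EndoC-βH3 is a beta-like line from fetal human pancreas, and 4-hydroxytamoxifen excises its immortalizing transgenes through an inducible Cre recombinase. Chromatin immunoprecipitation followed by sequencing (ChIP-seq) compared control cells (non-senescent) with cells made senescent by 3 weeks of 4-hydroxytamoxifen, all from this 1 line and labelled wild type. CTCF and H3K27ac were each measured in 3 libraries per state, and H3K4me1 and the retinoblastoma protein Rb in 2 per state, each with an input library (40 libraries). The treatment, the loss of the transgenes and senescence cannot be told apart in this design. The levels given below are the authors' mean normalized counts over all 6 libraries of an antibody, both states together, so they carry no replicate error and no difference between the states.

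CTCF is a zinc-finger protein that binds a long, asymmetric DNA motif and halts the cohesin complex as it extrudes chromatin loops, so that the direction of the motif sets which side of the site a loop extends to. It is known as an insulator between neighbouring regulatory domains and as an anchor of contacts between enhancers and promoters. H3K27ac, acetylation of lysine on histone H3 by CBP and p300, marks active promoters and enhancers, and an enhancer is usually placed where H3K27ac meets H3K4me1, as in the lists used here.

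The CTCF core is the central, most conserved stretch of the motif. It was searched as a 12-letter consensus on both strands, with at most 1 mismatch. The first set of sequences shows it in 5 of the 6 peaks with the highest mean counts, each given as 60 bases of hg38, 5′ to 3′ on the strand of the core, with the core match in capitals and the gene with the nearest coding start as the name.
NFASC (minus strand of chr1:204807407-204807466): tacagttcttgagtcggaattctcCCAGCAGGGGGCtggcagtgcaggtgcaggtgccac
C15orf48 (plus strand of chr15:45458091-45458150): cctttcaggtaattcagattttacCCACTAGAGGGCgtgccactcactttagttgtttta
DHX35 (minus strand of chr20:39048206-39048265): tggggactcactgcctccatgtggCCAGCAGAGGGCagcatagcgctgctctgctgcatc
PTMA (minus strand of chr2:231715389-231715448): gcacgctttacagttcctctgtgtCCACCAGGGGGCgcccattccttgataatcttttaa
ENTREP3 (minus strand of chr1:155251877-155251936): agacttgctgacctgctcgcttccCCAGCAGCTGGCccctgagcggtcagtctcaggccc
The match was exact in the first 4 of these and had 1 mismatch near ENTREP3. The second set shows the core in peaks nearest to genes of beta-cell identity, the cell cycle and the interferon response that are described further on, written in the same way.
HNF4A (minus strand of chr20:44386652-44386711): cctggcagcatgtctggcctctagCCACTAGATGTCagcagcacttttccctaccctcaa
CACNA1C (minus strand of chr12:2035048-2035107): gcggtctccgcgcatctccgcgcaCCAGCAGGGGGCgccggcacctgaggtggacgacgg
MKI67 (minus strand of chr10:128211168-128211227): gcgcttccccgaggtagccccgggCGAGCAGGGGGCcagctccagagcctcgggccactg
MKI67 (minus strand of chr10:128150136-128150195): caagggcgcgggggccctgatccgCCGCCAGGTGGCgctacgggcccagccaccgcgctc
CCND3 (minus strand of chr6:42044368-42044427): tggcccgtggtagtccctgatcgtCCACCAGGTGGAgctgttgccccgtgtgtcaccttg
IFNGR2 (minus strand of chr21:33445421-33445480): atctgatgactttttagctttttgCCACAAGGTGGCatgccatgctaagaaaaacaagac
IRF2 (minus strand of chr4:184538178-184538237): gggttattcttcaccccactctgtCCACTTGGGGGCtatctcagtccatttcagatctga
The match near CACNA1C was exact and the others had 1 mismatch.

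Under the rule of 1 bp overlap, CTCF levels were higher in the unlisted distal H3K27ac peaks than in the other 5 classes, an order that did not hold under stricter overlap. Their median was 84.3 counts per peak (95% interval of the median 77.9 to 91.5), against 58.6 over all CTCF peaks. It was 60.1 outside active chromatin (58.5 to 61.9), 57.9 at promoters with H3K27ac (56.0 to 60.8) and 57.2 at promoters without it (52.1 to 63.4). Listed enhancers had the lowest levels, with 49.1 in those of 1 state (43.6 to 56.9) and 37.8 in those of both (35.5 to 40.7). The interval of the unlisted class overlapped none of these. The spread within the class was wide, from 2.85 to 23272 counts, with quartiles of 23.2 and 252. The unlisted peaks held 9.53% of the summed CTCF signal. Intervals here and below describe peaks, which are not replicates, and no test between classes was made.

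**Figure D1:**
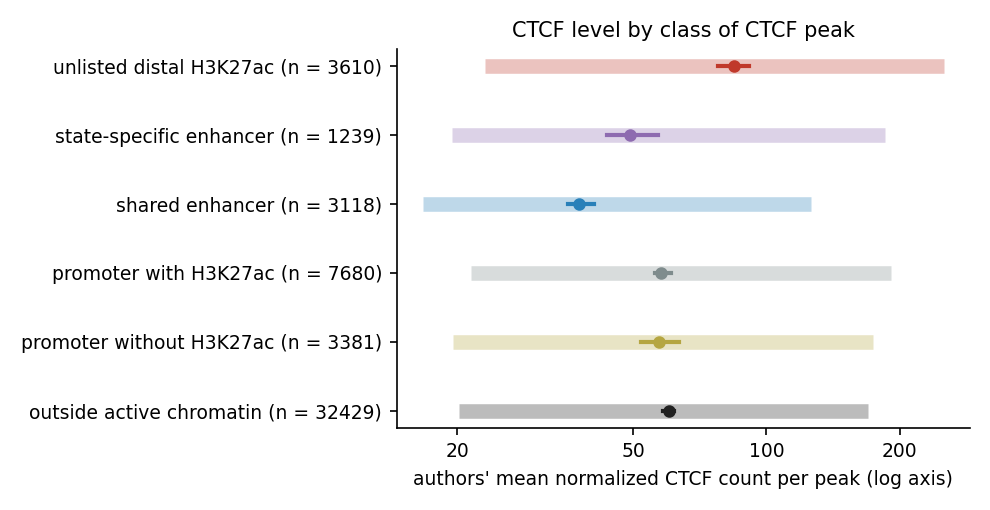
Authors' mean normalized CTCF count per peak (log axis) for the 6 classes of CTCF peak, with the number of peaks; dots are medians, dark lines their 95% intervals and pale bars the quartile range. The unlisted distal H3K27ac class has the highest median, 84.3, and enhancers listed in both states the lowest, 37.8.

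Width went with this difference. The unlisted peaks were wider, with a median of 1013 bp against 849 bp over all CTCF peaks, and mean count and width were closely related among them (Spearman's rho 0.95 across 3610 peaks). Under a rule of 1 bp, overlap with an H3K27ac peak itself depends on width. Among peaks under 500 bp, the level per kb of peak was 36.7 in the unlisted class and 36.5 outside active chromatin, with overlapping intervals. The classes also overlapped from 500 to 1000 bp, at 57.4 and 57.9 counts per kb. From 1000 to 1500 bp the unlisted peaks were at 128 counts per kb (125 to 132) and those outside active chromatin at 111 (110 to 112). From 1500 to 2000 bp they were at 173 (167 to 179) and 148 (146 to 150), while shared enhancers were at 173 (167 to 179). The higher level per kb was thus seen in wide peaks, and there in listed enhancers too. When at least 0.5 of the CTCF peak had to lie in the H3K27ac peak, 2336 peaks were left and their median fell to 44.03, below that of all CTCF peaks and of 4 other classes. When the centre of the CTCF peak had to lie in it, 2655 were left with a median of 59.8, between all CTCF peaks (58.6) and those outside active chromatin (60.1).

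**Figure D2:**
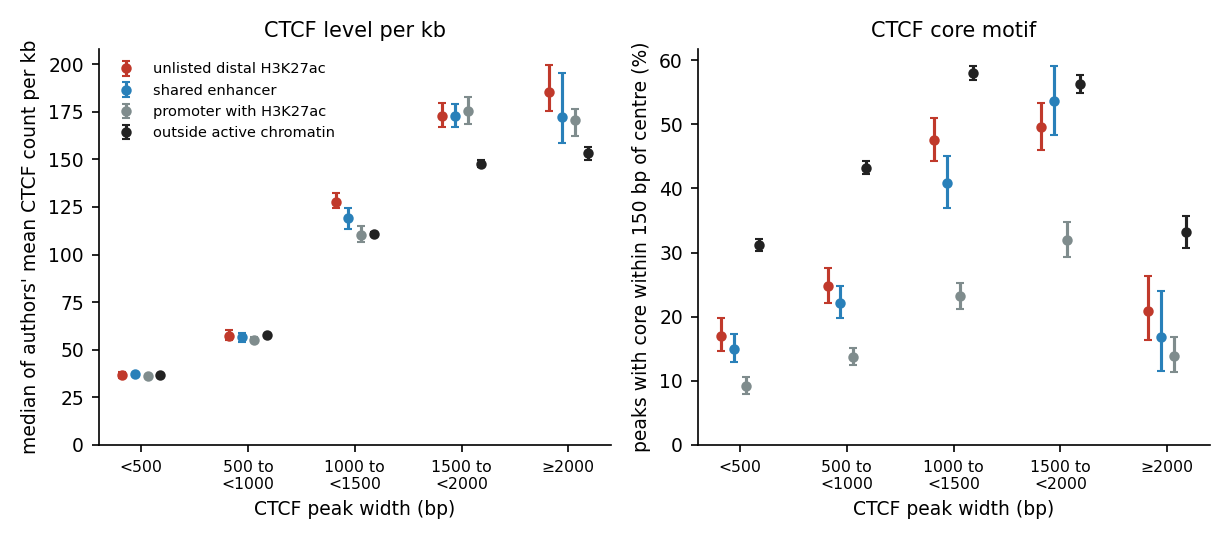
Left, median of the authors' mean CTCF count per kb, and right, the percent of peaks with a CTCF core within 150 bp of the peak centre, in bands of CTCF peak width (bp) for 4 classes; bars are 95% intervals. Levels per kb of unlisted distal peaks and of peaks outside active chromatin overlap below 1000 bp and separate above it, whereas the core share outside active chromatin is higher in every band.

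The core motif was found within 150 bp of the peak centre in 1192 of the 3610 unlisted peaks, 33.0% (95% Wilson interval 31.5 to 34.6). Windows of the same length placed 10 kb away held it in 2.22% (1.78 to 2.75). The share outside active chromatin was higher, 45.0% (44.5 to 45.6), and so was that over all CTCF peaks, 37.9%. Shared enhancers had a share of 26.2% (24.7 to 27.8) and enhancers of 1 state 28.7%. Promoters with H3K27ac had 17.4% (16.5 to 18.2) and promoters without it 36.0% (34.4 to 37.6). The share of unlisted peaks stood between those of listed enhancers and of CTCF peaks without the mark. At matched width, however, its interval overlapped that of shared enhancers in every band. Under 500 bp the 2 shares were 17.0% (14.6 to 19.8) and 15.0% (12.9 to 17.3). From 1000 to 1500 bp they were 47.6% (44.2 to 51.0) and 40.9% (36.9 to 45.0). From 1500 to 2000 bp they were 49.7% (46.0 to 53.3) and 53.7% (48.3 to 59.0). An exact core was present in 10.3% of them in this window. Over whole peaks, 1631 (45.2%) had a core with at most 1 mismatch, and 2990 (82.8%) one with at most 2. Per the study's methods, CTCF peaks had been filtered with a position matrix of the whole motif, which was not repeated here. Whether the deposited peaks are the filtered set was not tested, and 620 unlisted peaks had no core within 2 mismatches.

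The CTCF level of an unlisted peak followed the quality of its best core. The 521 peaks with an exact core somewhere in the peak had a median of 265 counts (250 to 285), the 1110 with 1 mismatch 171 (158 to 185) and the 1359 with 2 mismatches 53.2 (47.6 to 59.9). Those with 3 mismatches, 572 peaks, had 20.2 (18.7 to 22.4), and the 48 with 4 or more 13.2 (9.67 to 19.7). The first 4 of these intervals did not overlap one another, whereas the last 2 of the 5 did. A wide peak offers more positions to match, and the median width fell along the same series from 1568 to 336 bp. In the fixed window of 150 bp on either side of the centre, the share with a core in 4 groups of equal size, from low to high count, was 16.8%, 24.1%, 46.6% and 44.6%. Such groups outside active chromatin, cut on the counts of that class, had 30.1%, 42.4%, 53.8% and 53.7%. The gap between the classes was thus wider in the lower than in the upper groups, but the groups were not matched in count. The third ran from 84.3 to 251.5 counts in unlisted peaks and from 60.1 to 169.9 outside active chromatin.

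Peaks with the core lay nearer to the edge of the H3K27ac peak than those without it, and were also wider. The median share of the CTCF peak that lay in its H3K27ac peak (its host peak) was 43.7% with an exact core (41.1 to 47.5), 54.3% with 1 mismatch (51.6 to 56.9), 83.4% with 2 (79.1 to 89.2) and 100% with 3. Of the 1631 peaks with a core, 19.2% were wholly inside the host peak (17.4 to 21.2), against 46.5% of the 1979 without (44.3 to 48.7). Since a wide peak is less easily contained, these shares were also taken in bands of CTCF peak width, where the gap was smaller. From 500 to 1000 bp they were 37.3% (31.8 to 43.1) and 49.9% (46.1 to 53.6), from 1000 to 1500 bp 15.8% (12.8 to 19.3) and 23.4% (19.2 to 28.1), and from 1500 to 2000 bp 7.09% (5.16 to 9.65) and 10.8% (7.34 to 15.5). Below 500 bp they were 59.3% (51.2 to 67.0) and 69.3% (65.7 to 72.6). The share was lower with a core in all 5 bands, but the intervals were apart from 500 to 1000 bp alone. The core itself lay outside the host peak in 35.7% (33.5 to 38.1) and within 200 bp of its edge, on either side, in 43.6% (41.2 to 46.0). Centres of core-bearing peaks lay a median of 113 bp inside the nearest edge, and those of the other peaks 300 bp inside. Host peaks were narrower where the CTCF peak had a core, 960 bp against 1287 bp at the median, and their H3K27ac level was 51.6 against 57.8 counts per kb.

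**Figure D3:**
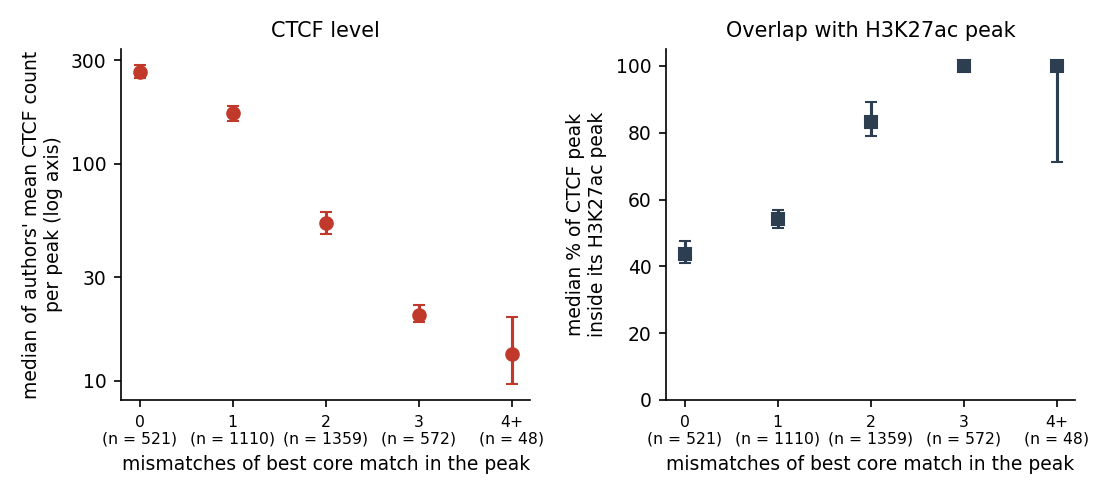
Unlisted distal CTCF peaks grouped by the number of mismatches in the best core match within the peak, with the number of peaks; left, median of the authors' mean CTCF count (log axis), right, median percent of the CTCF peak inside its H3K27ac peak, with 95% intervals. The level falls from 265 to 13.2 counts along the series, while the overlap rises from 43.7% to 100%.

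**Figure D4:**
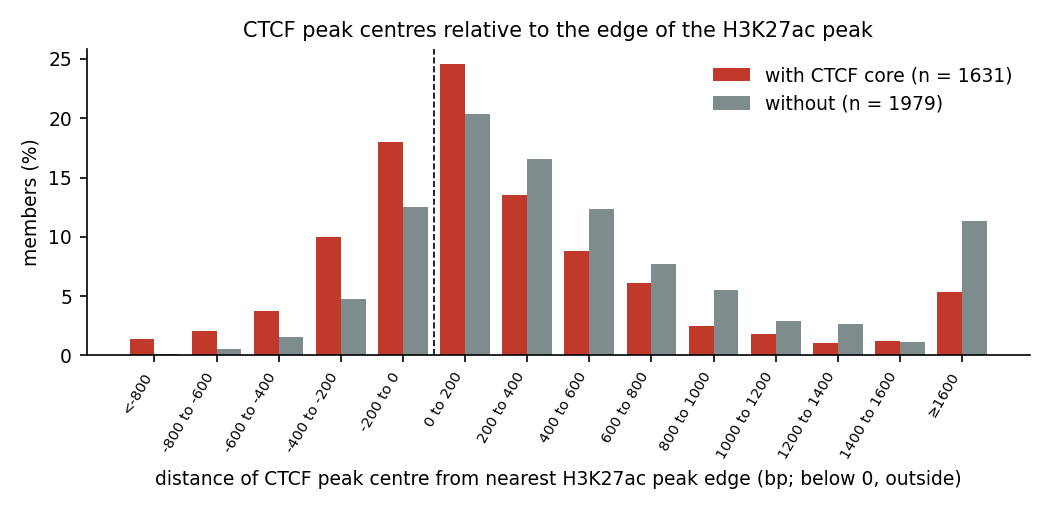
Percent of unlisted distal CTCF peaks by the distance in bp of their centre from the nearest edge of the H3K27ac peak, with values below 0 outside it, for the 1631 peaks with a core and the 1979 without. The bin from 0 to 200 bp inside the edge is the fullest in both groups, with 24.6% and 20.4%, and the bins outside the edge hold a larger percent of the core-bearing peaks.

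Most H3K27ac peaks lay on the 3′ side of the core, the side read after it on its own strand. Among the 1576 core-bearing peaks with a single host peak, the centre of the host was on this side in 957, 60.7% (58.3 to 63.1), where an even split would give 50%. The value was alike for cores on the plus strand (60.4%, 56.9 to 63.8) and on the minus strand (61.0%, 57.6 to 64.4), which made up 49.4% and the remainder of cores. It was 63.2% with an exact core (58.9 to 67.3) and 64.7% where under 0.5 of the CTCF peak lay in the host (61.2 to 68.0). Where the CTCF peak was wholly inside the host it was 49.8% (44.3 to 55.3), an even split. The CTCF peak's own centre leaned the other way, with 45.0% on the 3′ side of the core (42.6 to 47.4), as outside active chromatin (46.0%, 45.3 to 46.8). A skew of the same direction was present in enhancers of 1 state, at 59.5% (55.0 to 63.9), and was smaller in shared enhancers, at 54.4% (51.4 to 57.3), and at promoters with H3K27ac, at 55.6% (53.5 to 57.6). The side was examined after the data had been seen, and its cause was not tested. The direction of a core relative to that of the nearest CTCF peak with one was not skewed, since the pair faced each other in 24.95% of unlisted peaks with a core (22.9 to 27.1) and 25.1% of all CTCF peaks with one.

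**Figure D5:**
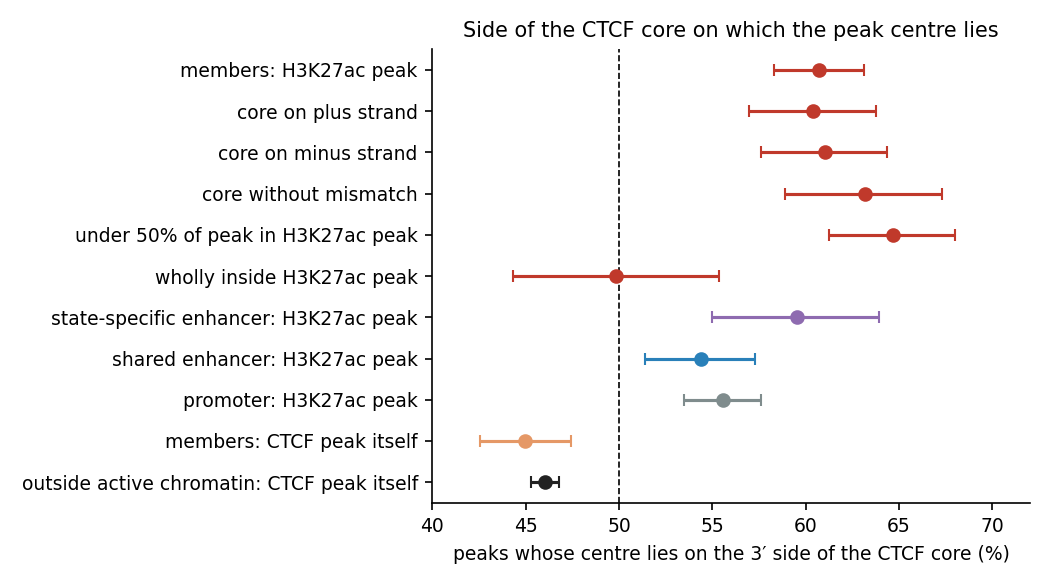
Percent of peaks whose centre lies on the 3′ side of the CTCF core, with 95% Wilson intervals and a dashed line at 50%, for the H3K27ac peak over unlisted distal CTCF peaks and strata of them, for the H3K27ac peak in 3 other classes, and for the CTCF peak itself. The H3K27ac peak of the unlisted class is on the 3′ side in 60.7% and the CTCF peak itself in 45.0%.

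The 3610 CTCF peaks lay on 3476 host peaks. Of these, 3362 carried 1 of the CTCF peaks and 2 carried 4, the largest number. In turn, 87 CTCF peaks overlapped 2 H3K27ac peaks and 1 overlapped 3, and such bridging peaks made up 3.37% of those with a core (2.60 to 4.36) and 1.67% of those without (1.19 to 2.33). The median H3K27ac level of a host peak was 53.5 counts per kb (52.7 to 54.5), against 66.6 over all H3K27ac peaks. Distal unlisted H3K27ac peaks without CTCF, of which there were 18509, had 44.1 (43.9 to 44.3) and were narrower, 690 bp against 1095 bp. Among peaks of 500 to 750 bp that touched no promoter window or listed enhancer, the level was 41.5 with CTCF (40.7 to 42.2) and 39.6 without (39.3 to 39.8). From 1500 to 3000 bp it was 66.8 (63.8 to 71.2) and 56.4 (55.7 to 57.3). H3K27ac was therefore higher beside CTCF at matched width, by little in narrow peaks and by more in wide ones. Across the unlisted CTCF peaks, CTCF and H3K27ac levels were barely related, with a Spearman's rho of -0.11 between mean CTCF count and host H3K27ac per kb.

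The rule bars a CTCF peak, and not its host, from promoters and enhancers. The host reached a promoter window in 421 cases (11.7%, 10.7 to 12.8), a listed enhancer in 200 (5.54%, 4.84 to 6.33), and either in 552 (15.3%, 14.2 to 16.5). These CTCF peaks had less CTCF and more H3K27ac than the others. They were also narrower, with a median of 638 bp against 1105 bp where the host touched neither, and width was not matched here. Per kb of peak, their median CTCF level was 53.0 against 95.2 counts. Their median CTCF level was 33.8 counts (27.2 to 39.4), and the level of their hosts was 202 counts of H3K27ac per kb. The 3058 peaks whose host touched neither had 107 CTCF counts (95.6 to 121) and 51.0 counts of H3K27ac per kb. Both hosts with 4 CTCF peaks were among those that touched a promoter window. One reached a promoter window near CMIP (chr16:81443248-81461905), with CTCF peaks of 9.47, 12.2, 28.5 and 10.6 counts. The other did so near ZNF516, a zinc-finger gene (chr18:76474082-76497515), with CTCF peaks of 15.6, 41.8, 17.0 and 9.31 counts. All 8 were in introns, none had a core within 1 mismatch, and both hosts touched an enhancer listed for non-senescent cells.

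For each list, an enhancer lay within 10 kb of a minority of the unlisted CTCF peaks. These distances were not set beside those of other classes. An enhancer of non-senescent cells lay within 10 kb of 877 unlisted CTCF peaks (24.3%) and one of senescent cells within 10 kb of 778 (21.6%), at median distances of 33048 and 37192 bp. Enhancers listed for non-senescent cells alone were within 10 kb of 302 (8.37%) and those for senescent cells alone within 10 kb of 176 (4.88%), but the lists hold 4371 and 2680 such regions. The median distance to a coding start site was 24843 bp. At the limit of the rule, the included peak nearest to a start site was in an intron of PRMT1, an arginine methyltransferase (chr19:49680230-49681669, 2005 bp from the start, 538 counts). The excluded peak nearest to the limit was in an intron of SIX4, a homeobox gene (chr14:60721307-60722349, 1999 bp, 122 counts).

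By the position of their centre, 1575 unlisted peaks were in introns of coding genes (43.6%, 42.0 to 45.3), 1136 were intergenic (31.5%), 670 lay in a long non-coding RNA (lncRNA) gene only (18.6%, 17.3 to 19.9), 138 in untranslated exons and 91 in coding exons. Over all CTCF peaks, introns held 42.0%, intergenic sequence 35.6% and lncRNA genes only 12.9%. The share in lncRNA genes only was 14.5% outside active chromatin and 12.4% in shared enhancers. The start of a lncRNA transcript was within 2 kb of 641 unlisted peaks, 17.8% (16.5 to 19.0). This share was 10.2% over all CTCF peaks, 5.62% outside active chromatin (5.38 to 5.88) and 8.02% in shared enhancers (7.12 to 9.02). At promoters with H3K27ac it was 25.8%, and at those without the mark 14.1%. These 641 had host peaks with 110 counts of H3K27ac per kb (99.2 to 127), against 51.9 (51.3 to 52.7) in the other 2969, a GC content of 57.8% against 48.8%, and a core within 150 bp of the centre in 22.0% (19.0 to 25.4) against 35.4% (33.7 to 37.1). A subset of the unlisted sites was thus within 2 kb of a lncRNA start, with higher H3K27ac and a lower core share than the other unlisted peaks. CTCF levels of the 2 sets were near each other, at 76.0 (64.1 to 106) and 85.2 counts (78.2 to 93.1).

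Short motifs of beta-cell and general enhancer factors were searched in windows of the same length on both strands. The window was centred on the CTCF peak or, in peaks without CTCF, on the H3K27ac peak. The AP-1 site TGANTCA was in 8.12% of unlisted CTCF peaks (7.27 to 9.05), 8.95% of CTCF peaks in shared enhancers and 11.2% of unlisted H3K27ac peaks without CTCF (10.8 to 11.7). The homeobox site TAATTA, bound by PDX1 and NKX factors, was in 7.20% (6.40 to 8.09), 8.43% and 10.9% (10.4 to 11.3). The FOXA site TGTTTAC was in 5.84%, 6.35% and 6.74%. The MAF site TGCTGAC was in 5.79%, 6.77% and 5.54%. This site and that of AP-1 share the letters TGAC and can overlap, and 26 unlisted CTCF peaks held both. The E-box CAGATG of NEUROD1 was the most frequent, in 25.2% (23.8 to 26.6), 28.9% and 24.6%. AP-1 and homeobox letters were thus less frequent at unlisted CTCF peaks than at unlisted H3K27ac peaks without CTCF, and the intervals of the other 3 overlapped. The windows differed in placement, since 73.5% of unlisted CTCF peaks had their centre inside an H3K27ac peak. They also differed in median GC content, 49.8% and 42.9%. The part of placement and of GC in these shares was not tested. Over all CTCF peaks, AP-1 was in 7.71%, the homeobox site in 8.02% and FOXA in 4.22%. The MAF site was in 4.95% of all CTCF peaks and the E-box in 21.8%. A match describes letters and not binding.

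The peak with the highest level was not a typical one. At chr19:42663233-42663736, intergenic and 68178 bp from the start of CEACAM8, a granulocyte adhesion gene, the mean CTCF count was 23272, which was 16.6 times the next value. A and T made up 99.6% of its 504 bases, with an unbroken AT alternation of 497 bases. Its H3K27ac host peak, 500 bp wide, had 5702 counts per kb, the highest of all H3K27ac peaks, and its best core had 7 mismatches. The second highest per kb, at chrX:34143848-34144099 near FAM47A, with 227 counts, was 86.1% A and T. Short alternating repeats are hard to place uniquely, and whether this bears on the 2 values was not tested. The first peak held 3.98% of the summed count of the unlisted class and left its median at 84.3.

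The other highest levels were at ordinary sequence. An intergenic peak 19773 bp from the start of NFASC, a neuronal adhesion gene, had 1401 counts, and only 38.2% of it lay in its H3K27ac peak. Next came C15orf48 with 1219 counts in a lncRNA gene (SLC30A4-AS1), DHX35, an RNA helicase gene, with 1207, and PTMA, the prothymosin alpha gene, with 1202, the last 2 of them intergenic. An intron of ENTREP3 had 1147. In all, 10 unlisted peaks were above 1000 counts. Host H3K27ac beside NFASC, C15orf48, DHX35 and ENTREP3 was 63.2 to 98.6 counts per kb, and the peak at PTMA, 2641 bp from its start, was at 1044, in a host that reached a promoter window. Per kb, the peaks with nearest starts of FOXD4L6 (484), TEX35 (449) and GALR1, a galanin receptor gene (439), followed that of NFASC (558). They were 135591, 20824 and 649598 bp from those starts. FOXD4L6 belongs to a family of near-identical copies, but whether the distant peak lies in duplicated sequence was not tested. The lowest level was 2.85 counts, 1225294 bp from the start of KCNV1, and the smallest overlap was 1 bp, in an intron of CDHR2 (82.3 counts).

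Of the 224 CTCF peaks nearest to the starts of 35 genes of beta-cell identity and secretion, 40 were of the unlisted class, 17.9% (13.4 to 23.4), beside 7.02% of all CTCF peaks. They lay nearest to 22 of the genes and had a median of 50.1 counts, with 16 holding a core. HNF4A, a nuclear receptor gene mutated in maturity-onset diabetes of the young, had the highest, 603 counts in its own intron 13732 bp from the start, beside a second of 239. Its H3K27ac host was at 68.1 counts per kb and covered 26.95% of the peak. CACNA1C, the L-type calcium channel, followed with 438 and 184 counts, both with an exact core. The 2 genes of the ATP-sensitive potassium channel that couples glucose to insulin release, KCNJ11 and ABCC8, had peaks of 274 counts, and of 256, 30.04 and 15.6 counts. The peak of 256 counts was in an intron of USH1C, 27297 bp from the ABCC8 start. The peak nearest to PCSK1, a prohormone convertase gene, had 287 counts and lay in a lncRNA gene, 94384 bp from the PCSK1 start. That nearest to SIX2, a homeobox factor of mature beta cells, had 276 and was 27030 bp from its start. By contrast, peaks nearest to the islet factors PAX6 (22.1), INSM1 (13.5) and FOXA2 (13.7) were low in CTCF, lacked a core within 1 mismatch and lay in hosts of 537 to 635 counts of H3K27ac per kb. The list thus held both kinds of site, core-bearing peaks in weak H3K27ac and coreless ones in strong H3K27ac.

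Of the 77 CTCF peaks nearest to 28 cell-cycle and senescence genes, 7 were of this class (9.09%, 4.47 to 17.6), at 6 genes. MKI67, which encodes the proliferation antigen Ki-67, had 2 of them, at 899 counts in the lncRNA gene LINC01163 and 390 counts in intergenic sequence, 82805 and 22850 bp from its start, with hosts of 46.6 and 46.4 counts of H3K27ac per kb. CCND3, which encodes cyclin D3, had 346 counts in an intron, LMNB1, the lamin B1 gene, 171, CDKN1B, the p27 inhibitor gene, 27.5, RBL2, an Rb relative, 24.3 and MYBL2 13.2. The peak named for RBL2 was 60204 bp from its start. Near 22 interferon-response genes it was 3 of 43 (6.98%, 2.40 to 18.6), the receptor genes IFNAR2 (196 counts) and IFNGR2 (194) and the regulator IRF2 (96.8, at 63159 bp from its start). Near 17 genes of CTCF and cohesin it was 1 of 49 (2.04%, 0.361 to 10.7). It had 189 counts in an intron of CCDC25, 7140 bp from the start of ESCO2, a cohesin acetyltransferase gene. The intervals of these 3 lists included the share over all CTCF peaks. A nearest start is a matter of position, and no link between a peak and the expression of these genes was measured.

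Senescence-specific Rb regions, 2435 in the deposited list, overlapped 8 unlisted CTCF peaks (0.222%, 0.112 to 0.437), against 0.286% of all CTCF peaks (0.243 to 0.336). The highest was within MIR17HG, the host gene of the miR-17-92 cluster (chr13:91348160-91349827, 689 counts, wholly inside an H3K27ac peak of 420 counts per kb). It was followed by 345 counts at an intergenic peak (chr5:70585107-70586793), 313876 bp from the nearest coding start, that of SERF1A. That gene has a near-identical copy, and whether the peak lies in duplicated sequence was not tested. With start sites of all annotated transcripts in the rule, 1 of the 8 would have stayed.

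The beta-cell label of the line was checked by H3K27ac at promoters of marker genes. All 13 beta-cell markers had a peak, from 49.5 counts per kb at MAFA to 537 at PAX6. Of 6 markers of other islet cells 4 had one, up to 152, of 4 acinar markers 1 (CPA1, 298), of 3 ductal markers KRT19 (188) and of 2 immune markers CD68 (238). The 4 endothelial and fibroblast markers had none.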

How the data were processed

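CTCF, H3K27ac, H3K4me1 and Rb ChIP-seq had been done in EndoC-βH3 cells, and the labels gave each library its antibody and state. As the study's methods state, reads were trimmed (Trim Galore) and mapped to hg38 (Bowtie2), and the authors identified CTCF peaks with MACS2 and H3K27ac peaks with HOMER against input, removed duplicates from H3K27ac, and counted reads in peaks. Tool versions and the way replicates were joined into 1 peak list are not given in the sources used here. The deposited signal used here is the authors' mean, over all libraries of an antibody, of counts divided by DESeq2 size factors. The other deposited columns hold the authors' own comparison of senescent with non-senescent cells (log2 fold change, its standard error, a test statistic, p-value and adjusted p-value), and they were not used. No value per library is in the 2 tables, so the depth per library is unknown, no error between replicates can be given and no difference between the states was tested. The 3 region lists hold positions.

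Peaks were joined by overlap of 1 bp, and starts were written from 1. The host peak was the H3K27ac peak with the longest overlap. Levels per kb are the mean count divided by peak width. Classes were assigned in the order promoter, enhancer, H3K27ac. The gene named is the one whose coding start was nearest. The CTCF core, a consensus of 12 letters, was searched with at most 1 mismatch within 150 bp of the centre and in the whole peak, taking the match with the fewest mismatches and then the one nearest to the centre. Sequences were read from hg38. Shares have 95% Wilson intervals and medians 95% binomial intervals of order statistics, which cover counting error only. Motif search and overlap were tested on simulated data. Regions were named by rule: the 6 highest by count and per kb, the lowest, the smallest overlap, those nearest to the 2 kb limit, the 3 highest for each gene list, the 2 highest on Rb regions, and the 2 host peaks with most CTCF peaks. Other genes of the lists were chosen after their values were seen. A region that the rule names is not reported here. The peaks, lists and rules were chosen with earlier results of these data known. Python 3.11.15, numpy 2.4.6, pandas 2.3.3 and scipy 1.17.1 were used.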

Additional observations from a re-analysis of the deposited data

How the results depend on the processing

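Each result was recomputed under the alternatives, 64 planned values and 5 added after seeing the data. Of the 64, 26 stayed within 1.5 times (counts) or within the interval of the value reported, and 38 moved. The first rank of the median among classes was lost under both stricter overlaps, and the direction against all CTCF peaks (58.6 counts) turned in 1 of them. With at least 0.5 of the CTCF peak inside the H3K27ac peak, 2336 peaks were left with a median of 44.03 counts, a core in 28.3%, hosts at 61.2 counts per kb, and 19.99% on hosts that touched a promoter window or listed enhancer. With the CTCF centre inside the H3K27ac peak these were 59.8 counts (60.1 outside active chromatin), 30.2%, 57.6 and 17.6%, and introns held 41.7%.

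With a start-site distance of 1 kb, the median was 77.1 counts, hosts were at 56.4 counts per kb and touched a window or enhancer in 26.5%, and introns held 46.2%. At 5 kb the last 3 were 52.4, 7.90% and 40.9%. With start sites of all annotated transcripts, the core share was 35.8%, hosts were at 50.9 counts per kb, introns held 47.9%, and 1 peak overlapped an Rb region. Dropping CTCF counts under 10 raised the median to 103. Dropping those under 50 left 2150 peaks with a median of 218, a core in 42.7%, hosts at 52.5 counts per kb, 10.4% on hosts that touched a window or enhancer, and 4 on Rb regions. With the host also outside promoters and lists (0% touching, by construction), the median was 107, hosts were at 50.7 counts per kb, and introns held 40.5%. The core share was 10.3% for exact matches and 45.2% over whole peaks. Host H3K27ac was 59.4 counts per peak. With any list gene start within 100 kb in place of the nearest start, the cell-cycle list had 16 peaks in place of 7, the interferon list 6 in place of 3 and the CTCF and cohesin list 4 in place of 1.

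The tables hold means over all libraries, so leaving out a replicate could not be done. No paired analysis was possible because the result comes from no test and no column carries a replicate number. Counting error limits the peaks of low count, and 247 of the 3610 (6.84%) had a mean under 10.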
